A study of Mus musculus with 6 samples.

Results

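Neat1 and Malat1 are abundant long noncoding RNAs of the nucleus, and their 2 genes were examined here together with the genes of 7 proteins that build the nuclear bodies in which these RNAs are found: Sfpq, Nono, Pspc1, Rbm14 and Tardbp of paraspeckles, and Son and Srrm2 of nuclear speckles. The members are these 9 genes, named by symbol and matched to their Ensembl identifiers, out of 23886 identifiers measured; all 9 passed the filter on low values. Poly(A) RNA was sequenced from AML12, a hepatocyte line established from mouse liver. Wild type AML12 cells had received static magnetic field treatment, with a field of constant strength and direction, in 3 libraries (SMF 1, 2 and 3) and no treatment in 3 libraries (Control 2, 3 and 4). The sources used here give no field strength, exposure time or passage, and nothing says whether the libraries of a group came from separate cultures, so their spread may be technical.

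Paraspeckles are bodies that form around Neat1. The gene gives a short transcript with a poly(A) tail and a long transcript without one, and the long form is the scaffold on which the proteins Sfpq and Nono assemble in mammals. Malat1, from the neighbouring gene, collects in speckles, which store splicing factors around a core held by the proteins Son and Srrm2; its mature 3′ end, like that of long Neat1, is cut by RNase P and folds into a triple helix in place of a poly(A) tail. In liver, both RNAs have been studied in stress, regeneration and tumour growth.

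Values are FPKM, fragments scaled by gene length and by the read total of the library, as the authors deposited them. Differences are means of log2(FPKM + 1) in SMF libraries minus the same in Control libraries, with the standard error from a fit of limma across all 11114 genes with at least 1 FPKM in at least 3 libraries. The 9 genes were chosen with results of this comparison known, so their values in SMF and Control libraries are a description, given without a test. Library totals behind the FPKM ran from 15514530 to 17969397 reads in SMF libraries and from 16601816 to 18200516 in Control libraries. The keratins Krt8 and Krt18 and the liver factors Hnf4a and Foxa2 were well expressed, with Hnf4a at 91.4 ± 1.95 FPKM in SMF and 91.6 ± 4.32 in Control libraries (SD, n = 3 each). Albumin stood at only 30.4 ± 2.8 and Apoa1 at 0.426 ± 0.139 FPKM in SMF libraries, against 29.2 ± 4.33 and 0.235 ± 0.0848 in Control libraries, and the bile duct keratin Krt19 at 1110 ± 74.9 against 1063 ± 10.7 FPKM. Ptprc, Pecam1, Stab2, Col3a1, Acta2 and Epcam, which mark other cell types of the liver, were at or near 0 in every library. On the same marker lists, the macrophage gene Cd68 stood at 2.27 ± 0.17 FPKM in SMF and 2.58 ± 0.514 in Control libraries, the fibroblast gene Col1a1 at 1.07 ± 0.0718 and 0.975 ± 0.19, and the bile duct factor Sox9 at 9.55 ± 0.755 and 8.99 ± 0.123. Their part in the results was not tested.

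Across all genes, 0 of 11114 passed limma at a Benjamini-Hochberg adjusted p of 0.05 (0.0%), with 1998 (18.0%) at an unadjusted p under 0.05, and limma-voom on reads recovered from the FPKM called 510 (4.59%). All 9 differences of the genes described here were below 0. In 5 of the 9, every SMF library lay below every Control library, which held for 12.7% of all genes tested, and in 0 of the 9 did every SMF library lie above. The genes were chosen on this contrast, so nothing is read from these counts. Longer genes were lower in SMF libraries in general, and most of these genes are long: among the 2778 tested genes of 6590 bases or more, the median difference was -0.07 with 76.8% below 0, and among the 998 over 10000 bases it was -0.09 with 86.1% below 0. Each difference is therefore given also after removal, within each library, of a fitted curve over GC content and gene length, called the correction from here on. The part of length or GC content in these differences was not tested.

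**Figure D1:**
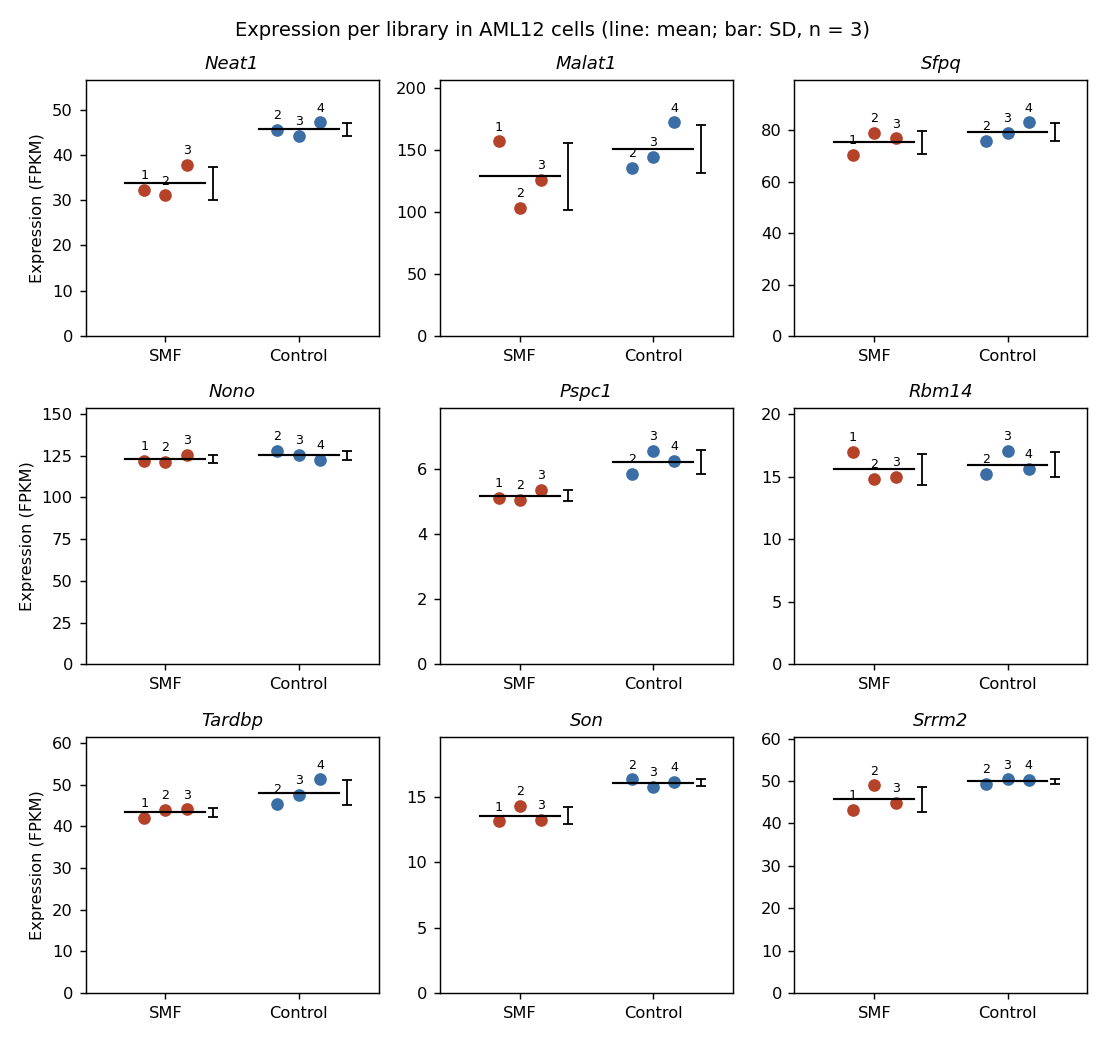
Expression in FPKM (vertical axes from 0) of the 9 genes in the 3 SMF and 3 Control libraries, numbered as in the labels; lines are means and bars SD. The SMF points of Neat1 lie at 31.1 to 37.9 FPKM and the Control points at 44.3 to 47.2, while the points of Malat1, Sfpq, Nono and Rbm14 overlap between the groups.

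Promoter sequence is shown for 3 of the genes, each 250 bases before to 50 bases after the annotated start, from RefSeq on build GRCm38.p6. For the deposited values, the submitters' processing notes name build GRCm39. Malat1 is shown as the noncoding gene with an entry, and Pspc1 and Son as the proteins furthest below the Control libraries. Neat1 had no entry in the table, and the other 8 genes did. Capitals mark the letters CCAAT and GGGCGG on either strand. The windows are chr19:5802623-5802922 on the minus strand (Malat1), chr14:56778269-56778568 on the minus strand (Pspc1) and chr16:91647574-91647873 on the plus strand (Son).
Malat1: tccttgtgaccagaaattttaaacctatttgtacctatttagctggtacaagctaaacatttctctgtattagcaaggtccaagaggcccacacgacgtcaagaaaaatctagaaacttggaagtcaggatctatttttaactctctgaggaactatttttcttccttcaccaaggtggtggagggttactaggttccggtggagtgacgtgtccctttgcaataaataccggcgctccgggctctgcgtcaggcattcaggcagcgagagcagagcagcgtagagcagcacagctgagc
Pspc1: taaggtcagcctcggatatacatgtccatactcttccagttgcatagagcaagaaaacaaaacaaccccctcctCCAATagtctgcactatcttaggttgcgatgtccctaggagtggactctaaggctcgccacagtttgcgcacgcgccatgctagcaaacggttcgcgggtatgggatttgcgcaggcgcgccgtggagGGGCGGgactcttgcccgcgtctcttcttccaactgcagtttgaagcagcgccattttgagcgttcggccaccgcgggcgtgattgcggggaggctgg
Son: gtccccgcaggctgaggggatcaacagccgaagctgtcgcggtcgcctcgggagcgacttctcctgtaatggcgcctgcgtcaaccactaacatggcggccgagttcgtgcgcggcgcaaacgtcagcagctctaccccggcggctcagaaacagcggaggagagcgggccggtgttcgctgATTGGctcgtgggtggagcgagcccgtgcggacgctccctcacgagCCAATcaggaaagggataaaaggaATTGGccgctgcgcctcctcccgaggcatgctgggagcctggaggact
The Malat1 window held neither motif, the Pspc1 window held 1 CCAAT and 1 GGGCGG, and the Son window held 3 CCAAT. Counted the same way, CCAAT was in 37.4% and GGGCGG in 35.7% of 32841 promoters of this length. The letters TATAAA (13.6% of all promoters), TGACGTCA (1.79%), CACGTG (7.15%) and GAANNTTC (7.86%) were in none of the windows of the 8 genes. The Malat1 window had a GC content of 47.0%, against 57.0% for Pspc1 and 65.3% for Son.

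Neat1 had the lowest difference of the 9 genes. Neat1 (ENSMUSG00000092274), on chromosome 19 and annotated as a single block of 20771 bases, measured 32.3, 31.1 and 37.9 FPKM in SMF 1, 2 and 3, against 45.6, 44.3 and 47.2 FPKM in Control 2, 3 and 4. All SMF libraries lay below all Control libraries, and SMF 3 stood nearest to them. The means were 33.7 ± 3.62 FPKM in SMF and 45.7 ± 1.45 FPKM in Control libraries (SD, n = 3 each), a ratio of 0.738. On the log2(FPKM + 1) scale the difference was -0.43 ± 0.07 (SE), and 0.63% of all tested genes had a lower one. After the correction it was -0.35 ± 0.08, and the groups still did not overlap. Without any 1 library it ran from -0.52 to -0.38.

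These levels rest on many reads. The FPKM of Neat1 corresponded to 10400, 11152 and 14128 reads in the SMF libraries, against 15736, 16748 and 16696 in the Control libraries. The length of 20771 bases behind its FPKM is that of the long form, and the short form lies within it. Capture was on oligo(dT) beads, so the value need not cover the long form, and the 2 forms cannot be told apart in a value per gene. Fewer cells that express a gene and less of its RNA per cell cannot be told apart in bulk samples either.

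Malat1 was the most abundant of the 9 genes by FPKM and the most variable between libraries of 1 group. Its mature 3′ end has no poly(A) tail and capture was on oligo(dT) beads, so its FPKM need not follow its level in the cells. Whether capture differed between libraries was not tested. Malat1 (ENSMUSG00000092341), a single block of 6983 bases on chromosome 19, measured 156.7, 103.3 and 126 FPKM in SMF 1, 2 and 3, against 135.3, 144.4 and 172 FPKM in Control 2, 3 and 4. The groups overlapped, with SMF 1 above 2 of the 3 Control libraries and SMF 2 the lowest of all 6. The means were 128.7 ± 26.8 FPKM in SMF and 150.6 ± 19.1 FPKM in Control libraries. The difference of -0.24 ± 0.14 on the log2(FPKM + 1) scale was -0.13 ± 0.16 after the correction.

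Single libraries set the size of the Malat1 difference. Without SMF 2 it was -0.09, without Control 4 -0.14, and without SMF 1 -0.39. The coefficient of variation of its FPKM was 20.8% among SMF and 12.7% among Control libraries, higher than in 92.7% and 85% of tested genes, where the medians were 6.03% and 5.41%. Neat1 varied by 10.7% among SMF and 3.17% among Control libraries. The reads behind Malat1 were 16979, 12470 and 15812 in SMF 1, 2 and 3, against 15684, 18349 and 20455 in Control 2, 3 and 4. An unnamed transcript annotated on the opposite strand within Malat1, Gm37376, was listed at 8.68, 9.58 and 4.42 FPKM in the SMF and 7.18, 1.7 and 2.2 FPKM in the Control libraries, and without strand information its reads and those of Malat1 cannot be separated.

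The neighbouring noncoding genes were both lower on average in SMF libraries, but their profiles over libraries differed in part. The ratio of Neat1 to Malat1 FPKM was 0.206, 0.301 and 0.3 in SMF 1, 2 and 3, against 0.337, 0.307 and 0.274 in Control 2, 3 and 4. The SMF ratios ran into the Control range, and the SMF library with the lowest ratio, SMF 1, was the one with the most Malat1. Malat1 stood 1449th among 4936 genes ranked by likeness to Neat1, where likeness is the root mean square difference of log2(FPKM + 1), centred on each gene's mean, over the 6 libraries. That difference was 0.22, beside 0.23 for a gene with no variation at all. The measure counts the size of the variation as well as its shape, and Nono, which varied little, ranked 1338th. The rank therefore cannot show whether the profiles of Neat1 and Malat1 are related.

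The genes nearest to Neat1 by this measure were Tcim, a small regulator of Wnt signalling, Spaca6, known for its part in sperm and egg fusion, and Rap2c, a small GTPase of the Ras family, at 0.09, 0.10 and 0.11. Tcim measured 26.9, 27.8 and 32.2 FPKM in SMF 1, 2 and 3, against 33.2, 34.7 and 40.1 FPKM in Control 2, 3 and 4. Of the 6 proteins with a mean of at least 10 FPKM, which leaves out Pspc1, Son ranked highest, 45th, with a root mean square difference of 0.15. Nearest to Malat1 were Cirbp, Gar1 and Tm2d1, at 0.12, 0.14 and 0.15. Cirbp, an RNA-binding protein induced by cold and found in paraspeckles, measured 10.2, 8.58 and 9.06 FPKM in SMF 1, 2 and 3, against 10.8, 10.6 and 12 FPKM in Control 2, 3 and 4. As with Malat1, SMF 2 was the lowest of the SMF libraries and Control 4 the highest of all 6.

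Frmd8, the protein gene next to Neat1 in annotated order and a cofactor of the shedding protease ADAM17, lay higher in SMF libraries. It measured 32.7, 31.3 and 31.4 FPKM in SMF 1, 2 and 3, against 28.9, 29.9 and 29.8 FPKM in Control 2, 3 and 4, and the groups did not overlap. Its difference was 0.10 ± 0.04 on the log2(FPKM + 1) scale (limma adjusted p = 0.226), and 0.05 after the correction.

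Of the 8 genes listed beside the locus, 6 were tested. All 6 had a difference above 0, beside 5189 of the 11114 genes tested. By limma, 0 of the 6 passed, and 2 had an unadjusted p under 0.05, all higher, beside 1046 of the 11114. The median was 0.12, against -0.01 over all genes tested, and 0.08 after the correction. Ltbp3, which binds latent TGF-beta and was named after its values were seen, measured 93.5, 86.2 and 88.7 FPKM in SMF libraries, against 77.8, 83.1 and 78.5 FPKM in Control libraries (0.16 ± 0.04, limma adjusted p = 0.164, and 0.13 after the correction). In 3 of the 6, every SMF library lay above every Control library, beside 11.0% of all genes. By limma-voom, Ltbp3 passed (adjusted p = 0.018), 1 of the 6, beside 2.18% of all genes called higher.

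**Figure D2:**
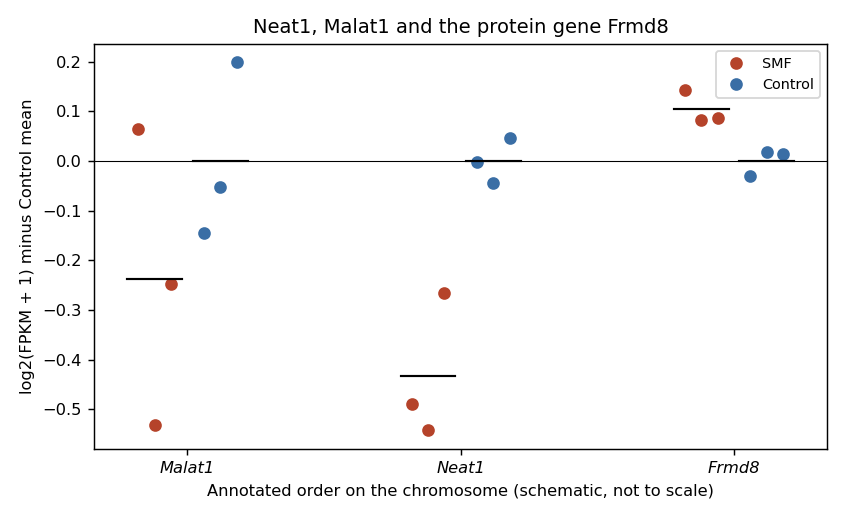
Log2(FPKM + 1) in each library minus the Control mean of the gene (vertical axis), for Malat1, Neat1 and Frmd8 in their annotated order (horizontal axis, not to scale); points are libraries and lines group means. Frmd8 lies above 0 in all 3 SMF libraries, Neat1 lies below 0 in all 3, and Malat1 spans 0.

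Sfpq and Nono, the DBHS proteins that bind and stabilise long Neat1, stood at similar levels in both groups, and the third protein of the family, Pspc1, was lower. Sfpq (ENSMUSG00000028820) measured 70.4, 78.9 and 76.9 FPKM in SMF 1, 2 and 3, against 75.9, 78.9 and 83.1 FPKM in Control 2, 3 and 4. The groups overlapped, SMF 1 being the lowest library and Control 4 the highest, with a difference of -0.07 ± 0.05 that was -0.02 ± 0.04 after the correction. A transcript annotated on the same strand over Sfpq, Gm12940, was listed at 6.04, 5.9 and 7.2 FPKM in SMF and 9.57, 8.12 and 8.46 FPKM in Control libraries, so that some reads may be shared with it.

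Nono (ENSMUSG00000031311), the partner of Sfpq in heterodimers, measured 122, 121.3 and 125.6 FPKM in SMF 1, 2 and 3, against 127.8, 125.2 and 122.5 FPKM in Control 2, 3 and 4. It was the steadiest of the 9 between the groups, which overlapped. Its difference was -0.02 ± 0.03 as deposited and 0.01 ± 0.03 after the correction, and its coefficient of variation was 1.89% among SMF and 2.11% among Control libraries.

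Pspc1 (ENSMUSG00000021938), paraspeckle component 1, measured 5.12, 5.06 and 5.38 FPKM in SMF 1, 2 and 3, against 5.85, 6.56 and 6.27 FPKM in Control 2, 3 and 4. Every SMF library lay below every Control library. The means of 5.18 ± 0.171 in SMF and 6.23 ± 0.358 FPKM in Control libraries stood in a ratio of 0.832, a difference of -0.22 ± 0.06 that was -0.13 ± 0.07 after the correction, still without overlap. Its reads were few beside those of the others, at 455 to 554 in SMF and 557 to 685 in Control libraries.

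Within the DBHS family, the balance of transcripts by FPKM as deposited leaned further from Pspc1 in SMF libraries. After the correction the difference of Pspc1 was smaller, at -0.13, beside 0.01 for Nono. The ratio of Nono to Pspc1 FPKM was 23.9, 24 and 23.4 in SMF 1, 2 and 3, against 21.8, 19.1 and 19.5 in Control 2, 3 and 4, with no overlap. The ratio of Nono to Sfpq was 1.63 ± 0.0975 in SMF and 1.58 ± 0.105 in Control libraries, and overlapped. Relative to Nono, Neat1 stood at 0.264, 0.256 and 0.301 in SMF libraries, against 0.357, 0.354 and 0.385 in Control libraries.

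The other paraspeckle proteins differed from each other. Rbm14 (ENSMUSG00000006456), a coactivator with a prion-like domain that holds paraspeckles together, measured 17, 14.8 and 15 FPKM in SMF 1, 2 and 3, against 15.2, 17.1 and 15.6 FPKM in Control 2, 3 and 4. The groups overlapped through most of their range, with a difference of -0.03 ± 0.07 that was -0.08 ± 0.05 after the correction, further from 0. Over the alternatives it ran from -0.11 with the replicate block to 0.01 without Control 3. A readthrough gene (Gm21992) and an antisense transcript (Gm21844) overlap it, both at no more than 1.18 FPKM in any library.

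Tardbp (ENSMUSG00000041459), which encodes TDP-43, an RNA-binding protein that regulates the choice of the Neat1 poly(A) site, measured 42.1, 44 and 44 FPKM in SMF 1, 2 and 3, against 45.4, 47.4 and 51.2 FPKM in Control 2, 3 and 4. The SMF libraries lay below the Control libraries, by a narrow margin between SMF 3 and Control 2. The difference of -0.14 ± 0.05 was -0.03 ± 0.04 after the correction, where the groups overlapped. Masp2, on the opposite strand, overlaps Tardbp, at no more than 0.5075 FPKM in any library.

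Both speckle scaffold genes lay lower in every SMF library. Son (ENSMUSG00000022961), a large protein with arginine-serine repeats, measured 13.2, 14.3 and 13.3 FPKM in SMF 1, 2 and 3, against 16.4, 15.8 and 16.2 FPKM in Control 2, 3 and 4. The gap between the groups was wider than the range within either. The means were 13.6 ± 0.652 FPKM in SMF and 16.1 ± 0.284 in Control libraries, a ratio of 0.842; the difference of -0.23 ± 0.05 was -0.14 ± 0.04 after the correction, without overlap.

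Srrm2 (ENSMUSG00000039218), the other scaffold, measured 43.1, 48.9 and 44.9 FPKM in SMF 1, 2 and 3, against 49.2, 50.4 and 50.2 FPKM in Control 2, 3 and 4. SMF 2 came within reach of Control 2, and the other SMF libraries lay lower. The difference was -0.13 ± 0.05, and -0.09 ± 0.04 after the correction, where the groups overlapped. The ratio of Srrm2 to Son FPKM was 3.28, 3.42 and 3.38 in SMF libraries, against 3.01, 3.18 and 3.1 in Control libraries. Genes on the opposite strand overlap both. Elob at Srrm2 was listed at 112.2, 95.7 and 107.8 FPKM in SMF and 92.9, 89.9 and 90.1 FPKM in Control libraries. Donson at Son was listed at 3.98 to 4.76 FPKM in SMF and 4.07 to 5.02 FPKM in Control libraries. On the same strand as Srrm2, Mir5125 was listed at 82.05 to 108.5 FPKM in SMF and 87.63 to 101.8 FPKM in Control libraries. Without strand information, reads in the overlaps cannot be separated, and those of Mir5125 may be shared with Srrm2.

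**Figure D3:**
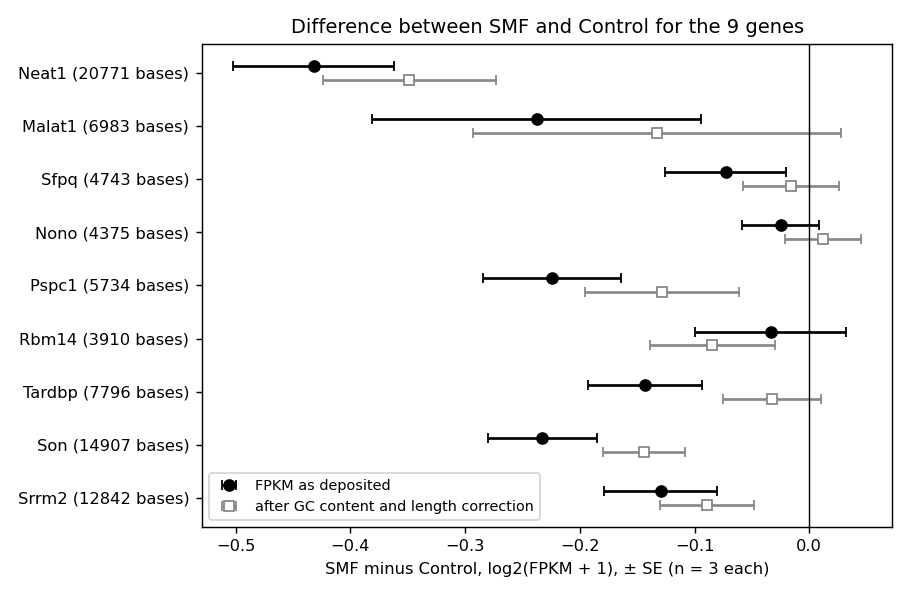
SMF minus Control on the log2(FPKM + 1) scale (horizontal axis, with SE, n = 3 each) for each gene with its length; filled circles are the FPKM as deposited and open squares are the values after the correction. Neat1 stands at -0.43 and -0.35, and Nono near 0 in both.

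Set against the proteins, the noncoding RNAs were lower in SMF libraries by more on average, and Neat1 carried most of this. The mean difference of the 2 RNAs was -0.33 and that of the 7 proteins -0.12. Mature Malat1 and long Neat1 have no poly(A) tail, so capture on oligo(dT) beads may differ between them and the protein transcripts. Per library, the mean log2(FPKM + 1) of the RNAs exceeded that of the proteins by 1.24, 0.87 and 1.17 in SMF 1, 2 and 3, against 1.26, 1.24 and 1.41 in Control 2, 3 and 4. The highest SMF value met the lowest Control value to the second decimal, so the groups were hardly apart.

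Taken singly, the RNAs did not behave alike against the proteins. Neat1 exceeded the protein mean by 0.11, 0.02 and 0.31 in SMF libraries, against 0.49, 0.40 and 0.48 in Control libraries, with no overlap. Malat1 exceeded it by 2.36, 1.72 and 2.02 in SMF libraries, against 2.04, 2.08 and 2.33 in Control libraries, with overlap and with SMF 1 the highest of all. The difference of RNAs minus proteins was -0.21, and -0.17 after the correction. It ran from -0.29 without SMF 1 to -0.10 without SMF 2.

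**Figure D4:**
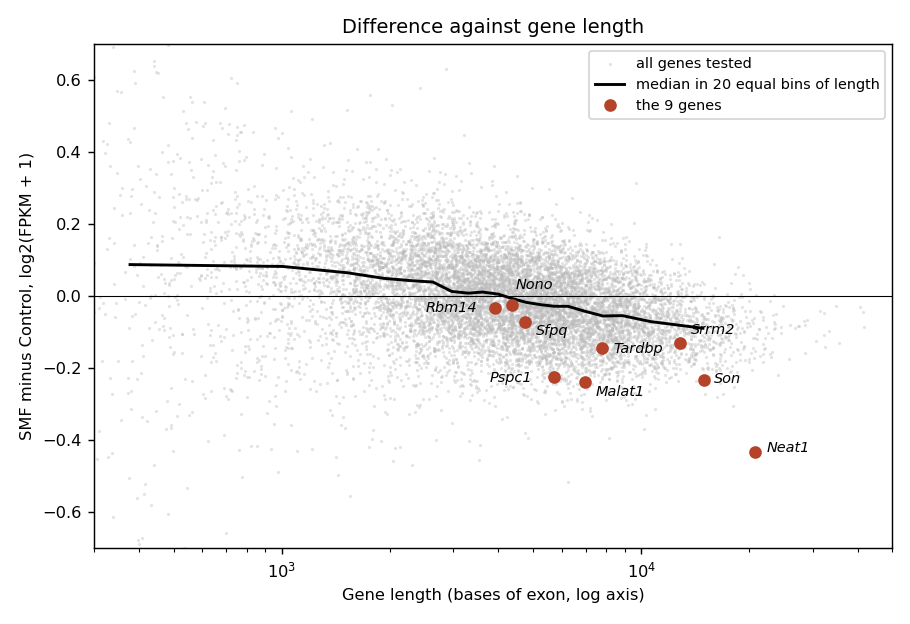
SMF minus Control on the log2(FPKM + 1) scale (vertical axis) against gene length in bases (horizontal log axis) for all genes tested (grey), with the median in bins of length (line) and the 9 genes (red); genes outside the axes are not drawn. The median lies below 0 for long genes, and Neat1 lies at -0.43.

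In order of level per length, Malat1 came first in both groups, followed by Nono, Sfpq, Srrm2, Tardbp and Neat1. Malat1 and Nono overlapped in SMF libraries and not in Control libraries. Srrm2 and Tardbp overlapped in both groups, and Tardbp and Neat1 only in Control libraries, where Neat1 at 47.2 FPKM in Control 4 was above Tardbp at 45.4 in Control 2. Son and Rbm14 stood in a different order by group: Rbm14 stood above Son in SMF libraries (15.6 ± 1.22 and 13.6 ± 0.652 FPKM), while the 2 overlapped in Control libraries (16 ± 0.968 and 16.1 ± 0.284 FPKM). Pspc1 was last in both groups. Over all 6 libraries, Malat1 ranked 279th, Neat1 1355th and Pspc1 6992nd among the 11114 tested genes. The places of Neat1 rest on the length of its long form. Neither that form nor mature Malat1 has a poly(A) tail, so their ranks need not follow their levels in the cells.

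Other paraspeckle proteins, from a list chosen by function, lay mostly slightly lower, and 0 of 30 tested passed limma in either direction (4 at an unadjusted p under 0.05, all lower, beside 8.57% of all genes, and 1 lower by limma-voom, Srsf10, beside 2.41%). Of the 30, 22 lay below 0, with a median of -0.05, against -0.01 and 53.3% below 0 over all genes; after the correction 12 lay below 0 and the median was 0.01. The smallest p-values belonged to Cirbp, Srsf10, Hnrnpa1 and Hnrnpk. Cirbp averaged 9.27 ± 0.818 FPKM in SMF and 11.1 ± 0.78 FPKM in Control libraries (-0.24 ± 0.07, limma adjusted p = 0.183, and -0.32 after the correction). Srsf10, a splicing regulator, averaged 18 ± 1.14 and 21 ± 1.51 FPKM in SMF and Control libraries (-0.21 ± 0.06, limma adjusted p = 0.187, and -0.11 after the correction).

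Among abundant members of that list, Hnrnpa1, a splicing repressor, averaged 230.3 ± 10.7 FPKM in SMF and 248.5 ± 5.91 FPKM in Control libraries (-0.11 ± 0.04, limma adjusted p = 0.236, and -0.06 after the correction). Taf15, an RNA-binding protein, averaged 127.1 ± 11 FPKM in SMF and 124.9 ± 4.43 FPKM in Control libraries (0.02 ± 0.06, limma adjusted p = 0.872, and 0.04 after the correction). Hnrnpk, which in human cells favours the long form of Neat1, averaged 96 ± 3.71 and 102.2 ± 1.48 FPKM in SMF and Control libraries (-0.09 ± 0.04, limma adjusted p = 0.268), and its difference was 0.01 after the correction. On a list of 6 genes for the Neat1 3′ end and stability, 0 passed limma and 0 passed limma-voom. By limma, 1 had an unadjusted p under 0.05, lower, beside 8.57% of all genes. Of the 6, 4 lay below 0, beside 53.3% of all genes, and the list had a median of -0.07, or 0.02 after the correction. On it, Nudt21 and Cpsf6, which act in cutting the short form at its poly(A) site and are named after their values were seen, had differences of -0.07 ± 0.05 and -0.07 ± 0.06 (limma adjusted p = 0.472 and 0.534), or 0.02 and 0.04 after the correction. The sources used here do not say how reads with several matches were counted, and hnRNP genes with processed copies, Hnrnpa1 among them, are uncertain for that reason.

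Other speckle proteins and kinases lay below 0 in most cases, again with 0 of 32 passing limma (7 at an unadjusted p under 0.05, all lower, beside 8.57% of all genes). Of the 32, 27 lay below 0 with a median of -0.08, and 21 with a median of -0.01 after the correction. In 8 of 32, every SMF library lay below every Control library, beside 12.7% of all genes and 24.1% of genes of 6590 bases or more, and the list's median length was 7380 bases. Bclaf1, a protein of RNA processing complexes, averaged 9.64 ± 0.234 FPKM in SMF and 11.6 ± 0.574 FPKM in Control libraries (-0.24 ± 0.05, limma adjusted p = 0.147, and -0.12 after the correction). Rbm25, a splicing factor, averaged 8.3 ± 0.45 and 9.68 ± 0.404 FPKM in SMF and Control libraries (-0.20 ± 0.06, limma adjusted p = 0.171, and -0.07 after the correction).

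Sf3b1, which recognises the branch point, averaged 29.1 ± 1 FPKM in SMF and 31.9 ± 0.524 FPKM in Control libraries (-0.13 ± 0.04, limma adjusted p = 0.187, and 0.00 after the correction). Srsf1, an SR splicing factor, averaged 61.5 ± 4.2 FPKM in SMF and 69.1 ± 2.35 FPKM in Control libraries (-0.17 ± 0.05, limma adjusted p = 0.198, and -0.08 after the correction). By limma-voom, 5 of the 32 were called lower, against 2.41% of all genes. The most abundant members, Srsf2 and Prpf8, averaged 132 ± 2.87 and 109.8 ± 4.85 FPKM in SMF libraries, against 138.2 ± 3.83 and 113.4 ± 2.02 FPKM in Control libraries, with differences of -0.07 and -0.05, or -0.08 and -0.03 after the correction. The kinases Clk1, Clk2, Clk3 and Clk4, which phosphorylate SR proteins and loosen speckles and are named after their values were seen, had differences between -0.05 and 0.06. After the correction these ran from 0.00 for Clk2 to 0.10 for Clk4.

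**Figure D5:**
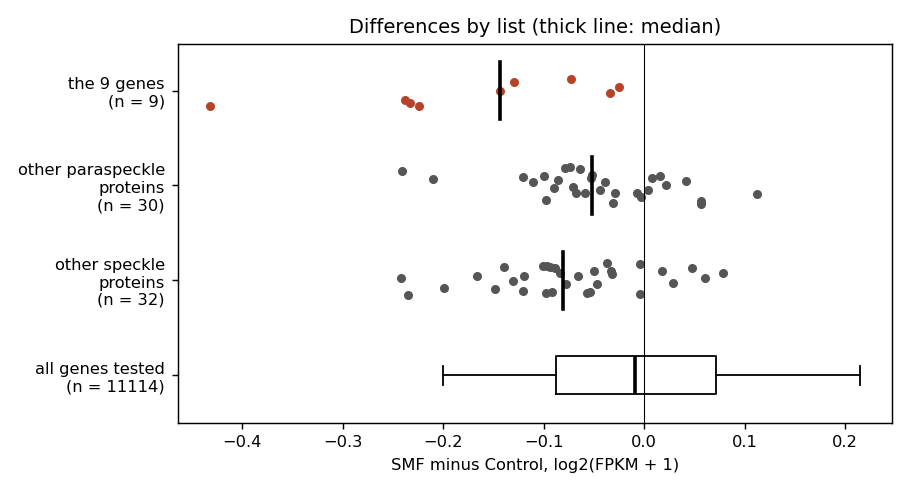
SMF minus Control on the log2(FPKM + 1) scale (horizontal axis) for the 9 genes, the other paraspeckle proteins and the other speckle proteins (points, with thick lines at the medians), beside all genes tested (box: quartiles; whiskers: middle 90%). The lists have medians of -0.05 and -0.08, against -0.01 over all genes.

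Other long noncoding RNAs were tested for 5 of the 10 listed, and 0 passed limma or limma-voom. By limma, 1 had an unadjusted p under 0.05, lower, beside 8.57% of all genes. In 1 of the 5, every SMF library lay below every Control library, beside 12.7% of all genes. The median of the 5 was -0.07, or -0.02 after the correction. The genes named from this list were chosen after their values were seen. Firre, a nuclear RNA of the X chromosome, averaged 11.5 ± 0.248 FPKM in SMF and 12.6 ± 0.313 FPKM in Control libraries, without overlap (-0.12 ± 0.04, limma adjusted p = 0.23, and -0.08 after the correction). Tug1, Norad and Pvt1 lay between -0.18 and -0.01, or at -0.06, -0.02 and 0.06 after the correction. Gas5 lay at 0.10 ± 0.05 (limma adjusted p = 0.308, and 0.17 after the correction).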

How the data were processed

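Poly(A) RNA of AML12 cells was sequenced in 3 SMF and 3 Control libraries, grouped by their titles; RNA was captured on oligo(dT) beads and cDNA was random-primed, per the labels' protocols. The authors deposited FPKM, 1 file per library. Build GRCm39, HISAT2 2.1.0 and Bowtie2 2.2.3 are named in the submitters' processing notes, with no role; the sources used here name no counting tool or annotation. Symbols, gene length and GC content came from GENCODE M21 (23521 of 23886 identifiers matched; Norad by its RefSeq synonym), which is on GRCm38, and promoters from RefSeq.

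At M21 exon lengths, FPKM came out as whole reads within 0.02 reads for 98.08% of 21741 genes, which gave library totals and reads; the other lengths were searched for. The main test, chosen for FPKM, was limma 3.58.1 (R 4.3.3) with a variance trend on log2(FPKM + 1), a pseudocount of 1, for genes with at least 1 FPKM in at least 3 libraries, two-sided, adjusted over all genes. It was tested on simulated data. Alternatives were pseudocounts of 0.1 and 5, no filter, a filter at 5 FPKM, TPM, median-of-ratios and quantile scaling, no variance trend, a replicate block, a GC content and length correction (loess, span 0.3), limma-voom on recovered reads, and each library left out. P-values weigh a difference against the spread between these libraries only, which limma estimates for each gene with help from all genes.

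The members and lists were chosen with earlier results of these data known. All 9 members are named; of lists, the genes that passed, or otherwise the 4 smallest p-values and the 2 highest means; of neighbours, Frmd8 (1 other gene is not reported here); and the 3 genes of at least 10 FPKM most like Neat1 and Malat1. Figures used matplotlib 3.10.9 in Python 3.11.15.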

Additional observations from a re-analysis of the deposited data

How the results depend on the processing

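The differences of Neat1, Malat1, Pspc1, Tardbp, Son and Srrm2 kept their direction under all 17 alternatives; Neat1 ran from -0.52 to -0.35 and Malat1 from -0.39 to -0.09. Of 170 values for the 9 genes and for RNAs minus proteins, 160 moved by less than 1 SD between replicates. No filter, the filter at 5 FPKM and no variance trend cannot change a difference, so part of both counts was fixed in advance. For Malat1, Sfpq, Nono and Rbm14 the SD was larger than the difference itself, so staying within it says little. Sfpq stood at 0.01 with the replicate block, Nono at 0.01 after the GC content and length correction and -0.08 under quantile normalization, and Rbm14 at 0.01 without Control 3 and 0.00 without SMF 2. After the correction Pspc1 was -0.13, Tardbp -0.03 and Son -0.14.

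Calls over all genes numbered 0 as reported, 8 with a filter at 5 FPKM, 19 with the replicate block and 510 with limma-voom (242 higher), and 0 to 3 with any 1 library left out. Limma-voom called 1 gene of the paraspeckle list and 5 of the speckle list, against 0 and 0. The cause was not tested. Replicate numbers 2 and 3 occur in both groups, but same-numbered libraries deviated together only weakly (r = 0.0585 and 0.046 across 11114 genes, which are not independent), so the numbers were not taken as pairs; under the block Neat1 was -0.38, Malat1 -0.29 and RNAs minus proteins -0.23. Depth limits Pspc1 most among the 9, at 455 to 554 reads in SMF and 557 to 685 in Control libraries.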
